A study of Caenorhabditis elegans with 4 samples.

Results

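The genes described are those of the thin filament switch of striated muscle: 9 troponin genes and the tropomyosin gene lev-11, chosen by name, 10 of the 20179 genes in the count table. They comprise the troponin C genes pat-10 and tnc-2, the troponin I genes unc-27, tni-1, tni-3 and tni-4, the troponin T genes mup-2, tnt-3 and tnt-4, and lev-11. By their known sites of expression, 6 troponin genes were grouped as body wall genes (pat-10, unc-27, tni-1, tni-3, mup-2 and tnt-3) and 3 as pharyngeal genes (tnc-2, tni-4 and tnt-4), while lev-11 serves both muscles and was kept apart. The body wall troponin T gene tnt-2 was not on the member list and is given beside it.

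Ribosome footprints were sequenced from whole young adult Caenorhabditis elegans fed OP50 bacteria, with 2 libraries for N2, the wild-type strain, and 2 for the double mutant cey-1 (rrr12), cey-4 (ok858), in which 2 genes for Y-box RNA-binding proteins are mutated. No other allele or agent is given, and the series title ties these proteins to polysome formation. The labels do not say whether the 2 libraries of a group came from separate cultures, so p-values measure the spread between these libraries, which may be technical. In the edgeR test, the spread assigned to most genes was largely shared over genes. Message abundance was not measured in these libraries, so more message and more ribosomes per message cannot be separated. In whole worms, a changed share of muscle among the tissues and a changed amount of RNA per muscle cell cannot be told apart.

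Muscle contracts when calcium binds troponin C, which releases the grip of the inhibitory subunit troponin I on actin, while troponin T anchors the complex to tropomyosin, the coiled coil that lies along the actin filament. The worm has a separate set of troponins for the obliquely striated body wall muscle, which moves the animal, and for the pharynx, which pumps food. Tropomyosin differs in this respect: 1 gene, lev-11, named for mutants that resist the drug levamisole, makes body wall and pharyngeal forms through alternative promoters and splicing. The RefSeq annotation of the WBcel235 assembly lists 19 proteins for lev-11, 6 for tnt-3, 2 for tnt-4 and 1 for each of the other members. The counts were deposited per gene, so these forms were not separated.

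Library totals ran from 22303560 to 32913332 counts. Levels are normalised footprint counts (CPM, scaled by library size with TMM factors), and fold changes are mutant relative to N2 on the log2 scale with their standard error (SE). Both mutated genes were almost without footprints in the mutant: cey-4 had 263 and 267 CPM in N2 against 1.87 and 1.53, and cey-1 had 69.9 and 73.6 against 3.85 and 4.14. All lists of tissue markers were detected in each library. Of 12 intestinal markers 7 rose and 2 fell, their median log2 fold change being 0.19, and their summed level was 10896 and 10949 CPM in N2 against 12188 and 12322, while 3 of 13 neuronal markers rose and 3 fell, with a median of 0.01. The 8 oocyte markers all fell in the mutant, with a summed level of 3291 and 3327 CPM in N2 against 1453 and 1425, and the 7 sperm markers all rose, from 645 and 661 to 911 and 962 CPM. No marker of these 4 lists was at 0, and the part of the intestine or the germline in the muscle values was not tested.

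All 10 members passed the low-count filter. In the mutant, 4 of them rose (mup-2, lev-11, unc-27 and tni-3), 2 fell (tnt-4 and tnc-2) and 4 did not pass the test (pat-10, tni-1, tnt-3 and tni-4). The threshold was a Benjamini-Hochberg adjusted p of 0.05 over 13086 genes in edgeR's quasi-likelihood test. Of all genes tested, 17.4% were called higher and 16.6% lower, 34.0% in all, so 6 of 10 members stands beside a background in which calls were common. Among the 2799 genes with a mean of at least 1000 counts, a limit chosen after the data were seen, 19.8% were called higher and 35.2% lower, 55.1% in all. The member tnt-3, with 769 to 1126 counts, fell below this limit by its mean. The median log2 fold change was 0.10 over the members and 0.012 over all genes tested. The split of calls over all genes moved with the scaling: 2278 higher and 2177 lower became 2730 and 1598 with upper-quartile factors, and 1418 and 3030 with libraries centred on somatic genes other than muscle. Those somatic genes were intestinal and neuronal markers and cuticle collagens (12, 13 and 121 tested), so this centring rested mostly on the collagens.

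The 4 members that rose did so by modest amounts, none reaching the log2 fold change of 0.97 of the myosin gene unc-54. Of the 6 body wall genes 3 rose and none fell, with a median of 0.14, and of the 3 pharyngeal genes 2 fell and none rose, with a median of -0.15. The count of pharyngeal genes that fell was 0 without mutant replicate 1 and 0 in DESeq2, whereas unc-27, tni-3 and mup-2 were each called whichever of the 4 libraries was left out. Other settings made calls against this pattern: the body wall gene tni-1 was called lower without N2 replicate 2 and with the somatic centring, and the pharyngeal gene tni-4 higher without N2 replicate 2 or mutant replicate 1. A fit without a library measured no spread within that library's group. With groups this small, the counts describe these genes and no test was made of the split as a whole.

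**Figure D1:**
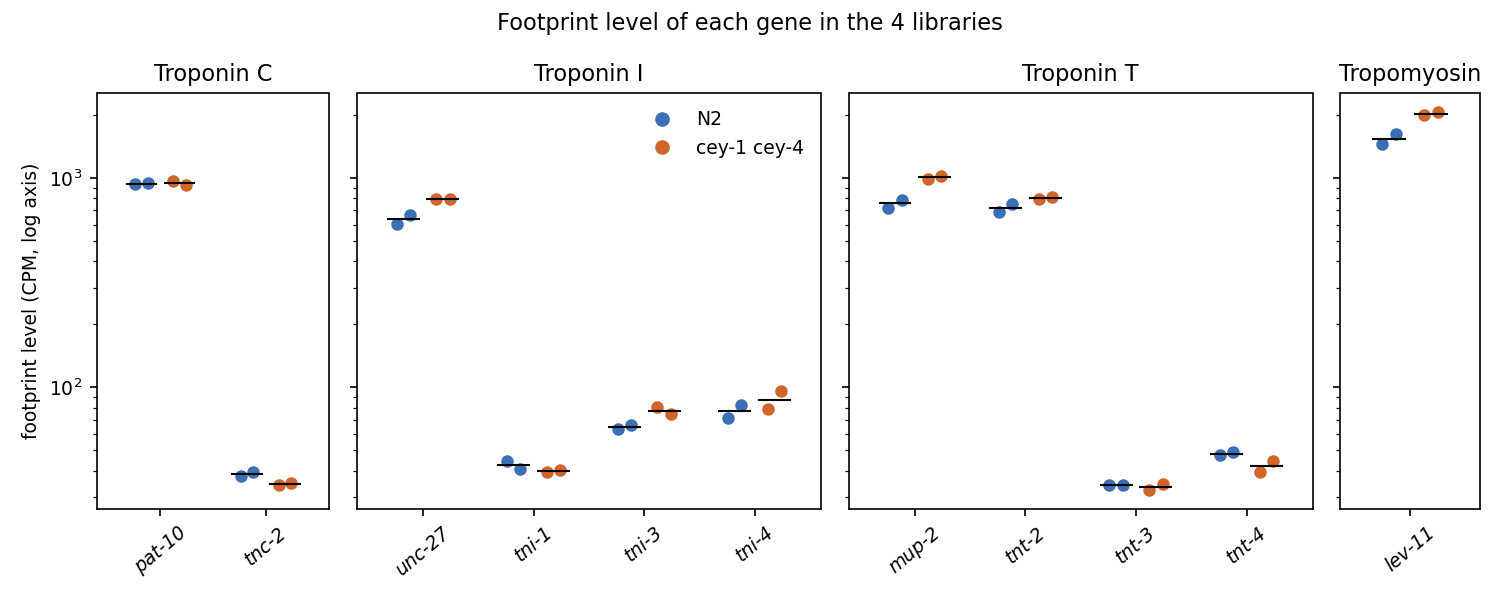
Footprint level of each gene (CPM, log axis) in the 2 N2 and the 2 cey-1 cey-4 libraries, with a line at each group mean, by subunit; levels are to be compared within a gene, since coding lengths differ. mup-2, unc-27, tni-3, tnt-2 and lev-11 sit higher in both mutant libraries, tnc-2, tnt-4 and tni-1 lower (tni-1 was not called), and pat-10 at 931 to 973 CPM throughout.

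For troponin C, the calcium sensor, neither gene was called higher. The body wall gene pat-10 (WBGene00003934), whose loss paralyses the embryo, had 936 and 945 CPM in N2 and 973 and 931 CPM in the mutant, from 20687 to 30806 counts. The mutant libraries lay on either side of the N2 libraries. Its log2 fold change was 0.02 (SE 0.051, edgeR adjusted p = 0.833), with a 95% interval (normal, from the SE) of -0.08 to 0.12, and it was not called under any of 13 other settings, which gave -0.07 to 0.06.

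The pharyngeal troponin C gene tnc-2 (WBGene00006583) had 37.6 and 39.4 CPM in N2 and 34.2 and 35.0 CPM in the mutant. Both mutant libraries lay below both N2 libraries, and the log2 fold change of -0.15 (SE 0.058) passed narrowly (edgeR adjusted p = 0.0346). The call did not hold with N2 replicate 2 left out (log2 fold change -0.12, edgeR adjusted p = 0.203), nor with mutant replicate 1 (-0.14, 0.215) or mutant replicate 2 left out (-0.17, 0.0861). It was also lost in DESeq2 (-0.16, adjusted p = 0.211) and with upper-quartile factors (-0.11, edgeR adjusted p = 0.161). Its RefSeq span overlaps the lectin gene clec-143, which had 10 to 22 counts against 779 to 1236 for tnc-2.

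Among the troponin I genes, which encode the inhibitory subunit, the abundant body wall gene unc-27 (WBGene00006764) rose. It is named for the uncoordinated movement of its mutants and had 604 and 664 CPM in N2 and 793 and 797 CPM in the mutant. The groups did not overlap, as for 64.8% of all genes tested (33.5% with the mutant higher and 31.3% with it lower), and the log2 fold change was 0.33 (SE 0.048, edgeR adjusted p = 6.36e-08). tni-3 (WBGene00006585), a troponin I gene of body wall and vulval muscle, had 63.2 and 65.8 CPM in N2 and 80.2 and 74.4 CPM in the mutant. Here too both mutant libraries were the higher ones, and the log2 fold change was 0.26 (SE 0.049, edgeR adjusted p = 7.55e-06). The RefSeq span of tni-3 overlaps that of phy-3, a prolyl hydroxylase gene with 248 to 374 counts against 1653 to 2188 for tni-3, and whether reads were counted by strand is not given in the sources used here.

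tni-1 (WBGene00006584), a further body wall troponin I, had 44.6 and 40.9 CPM in N2 and 39.2 and 40.1 CPM in the mutant. Both mutant values were lower, but by less than the difference between the N2 libraries, and the log2 fold change of -0.11 (SE 0.057) did not pass (edgeR adjusted p = 0.129). It was called lower without N2 replicate 2 (-0.17, edgeR adjusted p = 0.0387) and when libraries were centred on somatic genes other than muscle (-0.20, edgeR adjusted p = 0.0265). Its share of troponin I counts was 5.69% and 4.80% in N2 and 3.96% and 3.98% in the mutant, whereas unc-27 held 77.1% and 77.9% in N2 and 80.0% and 79.1% in the mutant.

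The pharyngeal troponin I gene tni-4 (WBGene00006586) was the member with the widest spread. Its levels were 71.7 and 82.1 CPM in N2 and 78.8 and 96.0 CPM in the mutant, so the groups overlapped. The log2 fold change of 0.18 had an SE of 0.158 and did not pass (edgeR adjusted p = 0.512). Without N2 replicate 2 the log2 fold change became 0.28 and without mutant replicate 1 it became 0.32. It was 0.08 without N2 replicate 1 and 0.04 without mutant replicate 2. Each of these fits left a lone library in a group, where no spread between libraries could be measured. Its RefSeq span overlaps 8 other genes, of which 1 is protein-coding (Y59E9AL.36) and the rest are piRNA genes. No counts were found under the name Y59E9AL.36, and rows known only by an identifier were not searched for it. Its level was therefore not set beside that of tni-4.

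Troponin T, which ties the complex to tropomyosin, held the member with the highest fold change and the one with the lowest. The body wall gene mup-2 (WBGene00003495), named for the muscle positioning defect of its mutants, had 723 and 788 CPM in N2 and 988 and 1026 CPM in the mutant. Each mutant library exceeded both N2 libraries, and the log2 fold change was 0.41 (SE 0.051, edgeR adjusted p = 3.80e-10). tnt-2 (WBGene00006587), with 690.3 and 752 CPM in N2 and 792 and 808 CPM in the mutant, rose with an edgeR adjusted p of 0.0127, its log2 fold change being 0.15 (SE 0.049). That call was lost when N2 replicate 1 (0.09, edgeR adjusted p = 0.260), mutant replicate 1 (0.16, 0.0575) or mutant replicate 2 (0.13, 0.128) was dropped, and with the centring on somatic genes (0.06, 0.366).

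tnt-3 (WBGene00006588), grouped with the body wall troponin T genes, had 34.2 and 34.1 CPM in N2 and 32.4 and 34.6 CPM in the mutant. The mutant libraries lay on both sides of N2, and the log2 fold change was -0.03 (SE 0.060, edgeR adjusted p = 0.733), with a 95% interval (normal, from the SE) of -0.15 to 0.09. The pharyngeal gene tnt-4 (WBGene00006589) had 47.5 and 48.9 CPM in N2 and 39.6 and 44.6 CPM in the mutant. Both mutant libraries were below N2, and the log2 fold change was -0.20 (SE 0.056, edgeR adjusted p = 0.00332). The lower of the 2 mutant libraries carried much of this: without mutant replicate 1 the log2 fold change was -0.11 (edgeR adjusted p = 0.277), and DESeq2 gave -0.21 (adjusted p = 0.0765).

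Tropomyosin rose with the body wall troponins that gained. lev-11 (WBGene00002978) had 1454 and 1618 CPM in N2 and 2009 and 2060.5 CPM in the mutant, from 45011 to 54828 counts. The groups did not overlap, and the log2 fold change was 0.41 (SE 0.059, edgeR adjusted p = 3.53e-08). The calls of lev-11, mup-2, unc-27 and tni-3 held in each of the 13 other settings, among them each library left out in turn. Their log2 fold changes ranged over 0.32 to 0.48 for lev-11, 0.33 to 0.48 for mup-2, 0.24 to 0.39 for unc-27 and 0.18 to 0.31 for tni-3.

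**Figure D2:**
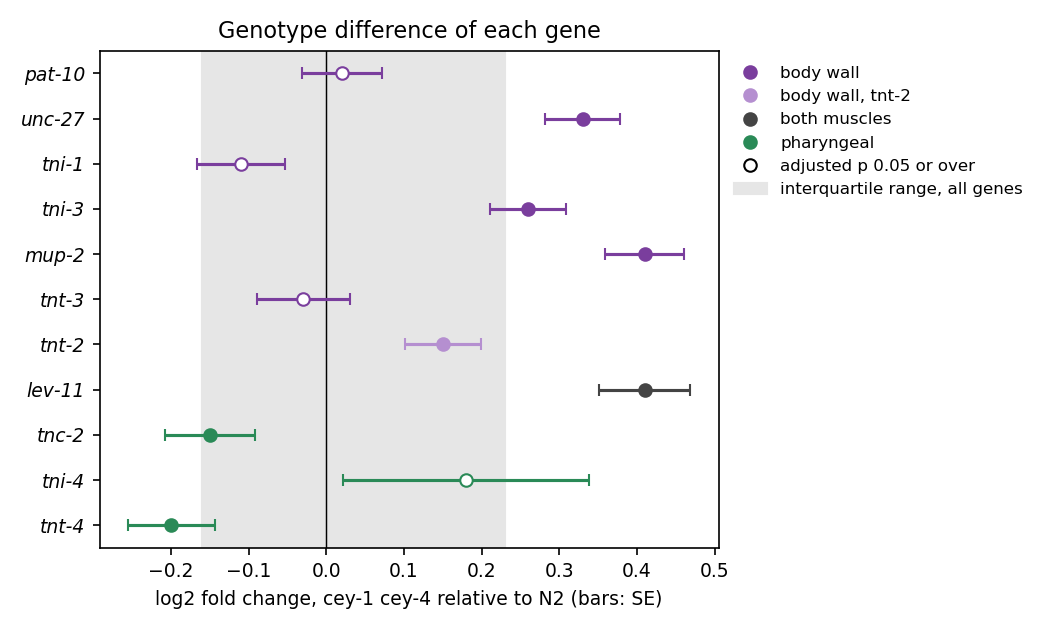
Log2 fold change of each gene (horizontal axis, mutant relative to N2) with its SE, by muscle type, filled where the adjusted p was under 0.05; the grey band spans the interquartile range of all genes tested, -0.16 to 0.23. mup-2 and lev-11 lie at 0.41, pat-10 at 0.02 and tnt-4 at -0.20.

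Footprints on the troponin subunits and tropomyosin did not shift together: troponin C summed to between 966 and 1007 CPM in all 4 libraries, while the others were higher in both mutant libraries. Plain sums over genes were used, because no coding lengths were used here and levels of different subunits cannot be set against each other without them. For troponin C the sums were 974 and 984 CPM in N2 and 1007 and 966 CPM in the mutant, a ratio of 1.01. Troponin I summed to 784 and 852 CPM in N2 and 991 and 1007 CPM in the mutant, a ratio of 1.22, and troponin T to 805 and 871 CPM against 1059.9 and 1105 CPM, a ratio of 1.29.

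Set against troponin C within each library, which removes any library scaling, the sums of all other components were higher in both mutant libraries. Each sum rested mostly on a single gene. mup-2 held 89.9% to 93.2% of troponin T counts (tnt-2 left out) and unc-27 77.1% to 80.0% of troponin I counts. In troponin C, pat-10 held all but the 3.39% to 4.00% on tnc-2. The log2 fold changes of tni-1 (-0.11), tnt-3 (-0.03) and tnt-4 (-0.20) were negative, whereas those of tni-3 (0.26) and tni-4 (0.18, not called) were positive. With the N2 mean set to 1, troponin I stood at 0.963 and 1.04 in N2 and at 1.18 and 1.25 in the mutant. Troponin T stood at 0.966 and 1.03 in N2 and at 1.23 and 1.34 in the mutant, or at 1.15 and 1.24 in the mutant when tnt-2 was included. Tropomyosin stood at 0.952 and 1.05 in N2 and at 1.27 and 1.36 in the mutant. None of the ranges overlapped, and each of these comparisons had a 2-sided exact permutation p = 0.333, which is the smallest that 2 against 2 libraries allow. The design thus cannot reach the threshold for such a ratio.

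**Figure D3:**
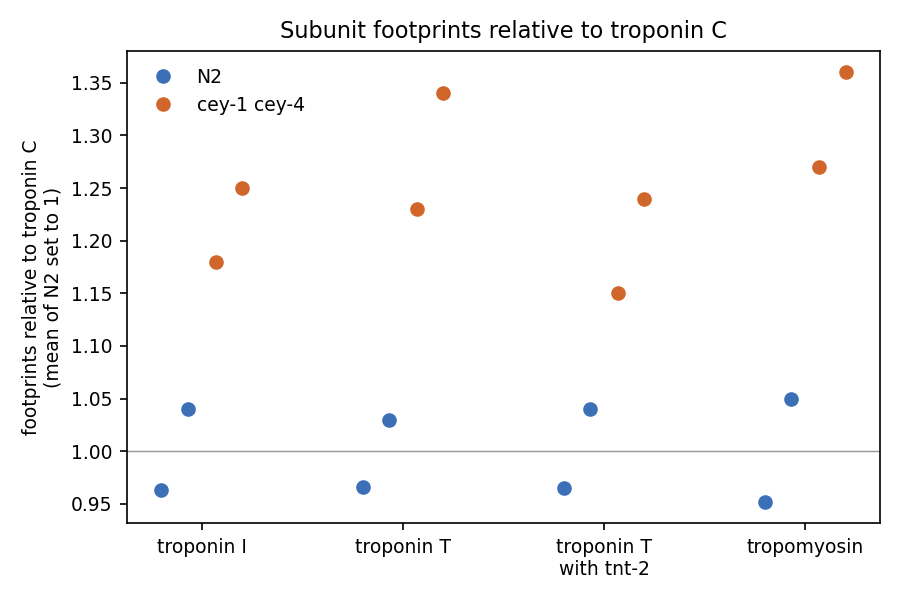
Summed footprints of each component divided by those of troponin C in the same library, with the mean of N2 set to 1 (vertical axis, which does not start at 0); each point is a library. The mutant libraries lie at 1.15 to 1.36 and the N2 libraries at 0.952 to 1.05.

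The share of each subunit's footprints that lay on its pharyngeal gene is free of library scaling, and it depends on the body wall genes as well as on the pharyngeal one. Shares are of counts, not of molecules, and their exact binomial (Clopper-Pearson) 95% intervals reflect counting error alone, since the reads carry no molecular identifiers and PCR copies are not independent. For troponin T, tnt-4 held 5.90% (interval 5.62 to 6.19) and 5.62% (5.33 to 5.92) in N2 and 3.73% (3.52 to 3.96) and 4.04% (3.79 to 4.29) in the mutant. The intervals of the 2 genotypes did not touch, mup-2 being 33.2% higher in the mutant by its mean and tnt-4 12.7% lower. The mean share was 5.76% ± 0.199 (SD, n = 2) in N2 and 3.89% ± 0.214 (SD, n = 2) in the mutant (exact permutation p = 0.333). With tnt-2 counted in, the means were 3.10% and 2.23%.

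For troponin C, tnc-2 held 3.86% (interval 3.65 to 4.07) and 4.00% (3.78 to 4.24) in N2 and 3.39% (3.18 to 3.62) and 3.63% (3.38 to 3.89) in the mutant. The mutant shares were both lower, but the interval of mutant replicate 2 overlapped those of N2 (exact permutation p = 0.333). For troponin I, tni-4 held 9.16% and 9.63% in N2 and 7.95% and 9.53% in the mutant. These values overlapped between the genotypes, with a difference in means of -0.650 percentage points (exact permutation p = 0.667). Leaving out mutant replicate 1 turned the difference to 0.142 percentage points, and leaving out mutant replicate 2 made it -1.44. Of the 3 subunits, troponin T was thus the 1 whose shares were apart by counting error as well as by library range.

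**Figure D4:**
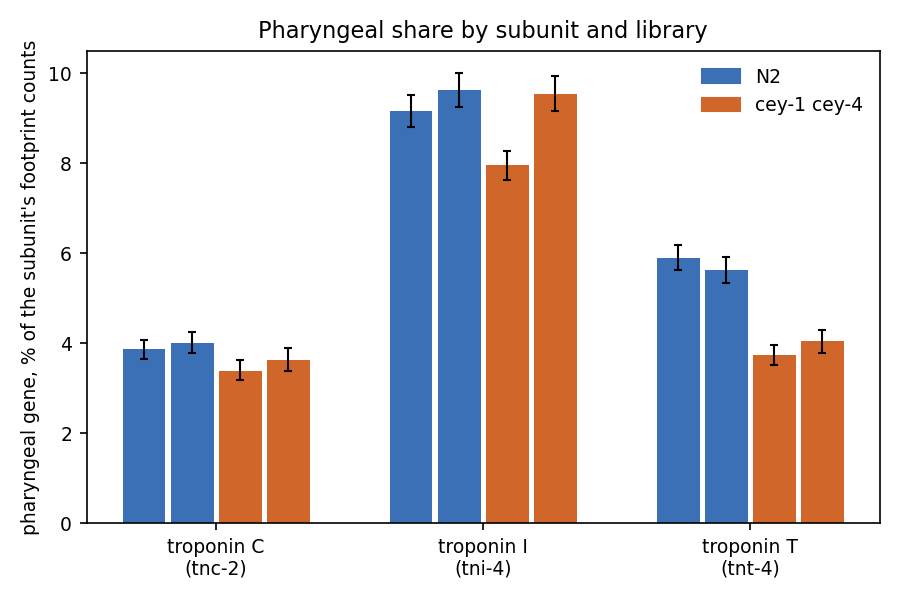
Footprint counts on the pharyngeal gene as a percentage of all counts of its subunit (bars from 0, by library), with exact binomial 95% intervals. The troponin T share was 5.90% and 5.62% in N2 and 3.73% and 4.04% in the mutant, and the troponin I share overlapped.

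The other genes of muscle place these values. In the thick filament list, 8 of 10 genes rose and the other 2 were not called, beside 17.4% of all genes called higher. The median log2 fold change was 0.60, beside 0.14 for the body wall troponins and 0.012 for all genes. The list was uneven: mlc-1 (not called), unc-45, mlc-2 and mlc-3 had log2 fold changes of 0.04, 0.16, 0.18 and 0.25. The remaining genes of the list lay at 0.57 to 0.97, among them unc-89, which was not called (0.63, SE 0.294, edgeR adjusted p = 0.285). unc-54, the major body wall myosin heavy chain, had 6879 and 7290.0 CPM in N2 and 13840.0 and 13848 CPM in the mutant. The second body wall myosin gene myo-3 had a log2 fold change of 0.89 (edgeR adjusted p = 2.76e-24) and the paramyosin gene unc-15 one of 0.83 (edgeR adjusted p = 4.45e-20). The 4 body wall muscle markers, which share 3 genes with the thick filament list and add the muscle transcription factor hlh-1 (0.47, edgeR adjusted p = 0.0159), all rose. Their summed level was 9737 and 10459 CPM in N2 and 19248 and 19234 CPM in the mutant, none was at 0, and its part in the troponin values was not tested.

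Of 16 other thin filament genes, tnt-2 included, 5 rose, 1 fell and 10 did not pass, with a median of 0.09. Over all genes tested, 17.4% were called higher and 16.6% lower, 34.0% in all. ketn-1, which encodes the giant actin-binding protein kettin, rose from 506 ± 4.51 to 864 ± 15.5 CPM (SD, n = 2), 0.77 on the log2 scale (edgeR adjusted p = 7.06e-24). unc-87, whose calponin-like protein binds actin filaments, rose by 0.39 (edgeR adjusted p = 5.08e-09). The abundant actin gene act-4 rose by 0.30 (edgeR adjusted p = 1.40e-05), whereas act-2 fell by 0.29 (edgeR adjusted p = 6.66e-06). The actin genes are near-identical in their coding sequence, so the counts of each are uncertain. How alike the troponin genes are in sequence, and whether reads could be exchanged among them, was not analysed here.

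The pharyngeal myosin genes were higher in both mutant libraries than in N2. tnc-2 and tnt-4 were lower in both, by calls that did not hold in DESeq2. tni-4, the remaining pharyngeal troponin gene, had a log2 fold change of 0.18, was not called and overlapped between the groups. myo-1 had 384 and 322 CPM in N2 and 518 and 579.9 CPM in the mutant, and myo-2, the second pharyngeal myosin heavy chain, had 377 and 309.8 against 491 and 549 CPM. Both mutant libraries were higher for each, but the spread between libraries was wide and neither passed the test (log2 fold changes 0.63 and 0.60, edgeR adjusted p = 0.103 and 0.131). The minor myosin gene myo-5 rose from 59.6 ± 0.683 to 74.5 ± 1.43 CPM (SD, n = 2), with a log2 fold change of 0.32 and an edgeR adjusted p of 9.58e-08. The potassium channel gene exp-2, with 76 to 97 counts, had a log2 fold change of 0.38 (edgeR adjusted p = 0.0702). Of the 8 pharyngeal muscle genes tested, 1 rose and 7 were not called, with a median of 0.35. The others were ceh-22 (0.55, from 3 to 15 counts), inx-6 (0.22), avr-15 (0.08) and eat-5 (-0.15), none of them called. The difference between these genes and the pharyngeal troponins was not tested. Of the 11 genes of pharyngeal gland and cuticle, none at 0, 7 were tested, with 1 higher (phat-2), 2 lower (phat-3 and phat-4), 4 not called and a median of 0.20, so the list did not move one way. Its summed level was 156 and 156 CPM in N2 and 148 and 144 CPM in the mutant.

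**Figure D5:**
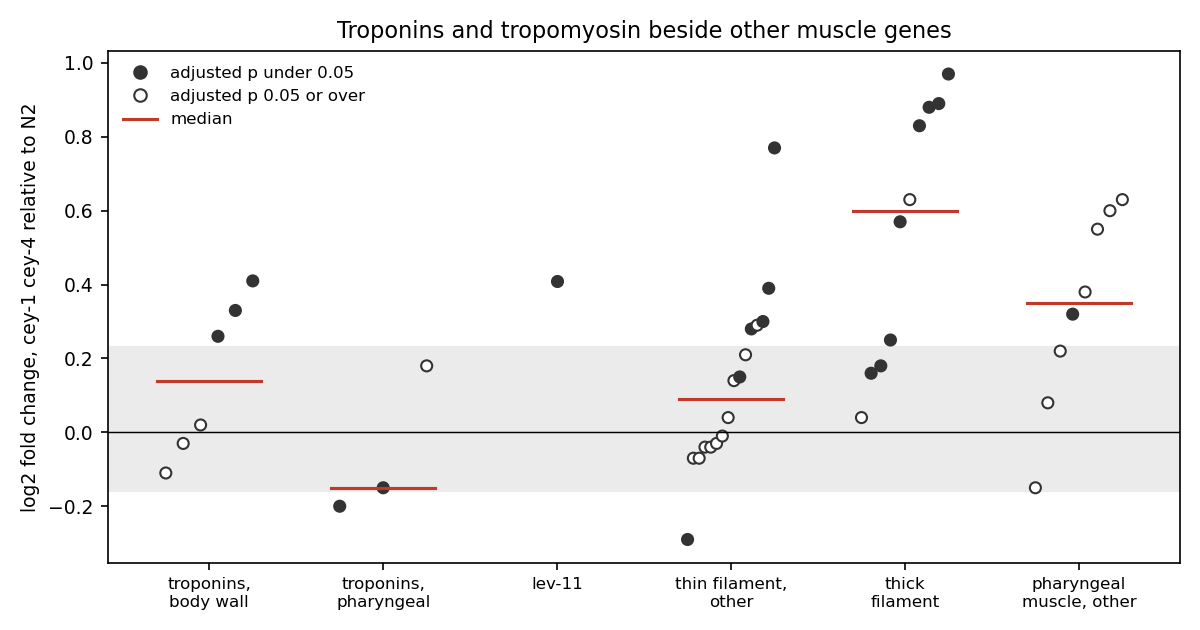
Log2 fold change (vertical axis, mutant relative to N2) of the troponins, lev-11 and the genes of 3 other muscle lists, 1 point per gene, filled where the adjusted p was under 0.05, with list medians in red; the grey band spans the interquartile range of all genes, -0.16 to 0.23. The thick filament median lies at 0.60, the body wall troponin median at 0.14 and the pharyngeal troponin median at -0.15.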

How the data were processed

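The authors deposited whole-number counts of ribosome footprints per gene for 4 libraries, and log2 values that were recomputed from those counts (scaled to the smallest library total, pseudocount 8) within 0.0005. Bowtie is named per the submitters' processing notes; its version, the build, the annotation and the counting rule were not given in the sources used here. There were 20182 rows, of which 3 under a sequence name repeated a gene and were left out, among them a copy of pat-10 with identical counts. Symbols came from a WormBase name table.

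The genotypes were compared with edgeR 4.0.16 in R 4.3.3 (TMM normalization, filterByExpr with a minimum count of 10, robust glmQLFit and glmQLFTest, 2-sided, genotype as the only term) over all genes. A prior check on simulated counts drew on the spread that edgeR had fitted, so it checked the code and not the error rate in these data. An SE is the size of the log2 fold change divided by the square root of F. With 2 libraries per group, the spread of a gene was drawn strongly toward that of other genes. The median prior degrees of freedom of the dispersion estimate were 69.6, so most edgeR p-values rest little on that gene's own replicates. Replicate libraries differed by more than sampling noise: the chi-square over its degrees of freedom was 22.9 between the N2 libraries and 7.85 between the mutant ones. Shares used scipy 1.17.1.

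Alternatives were DESeq2 1.42.0, limma 3.58.1 (voom, and the deposited log2 values), other scalings and filters, a replicate block and each library left out. The members, gene lists and rule for named genes (all members, tnt-2, the mutated genes, and per muscle list the 2 genes of lowest p and the 2 of highest level) were chosen with earlier results of these data known. hlh-1 was named outside that rule, to complete its list. So were the called pharyngeal gland and cuticle genes, the remaining pharyngeal muscle genes and the thick filament genes of lowest fold change. unc-89, genes overlapping members and the nearest profiles were also named outside it.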

Additional observations from a re-analysis of the deposited data

How the results depend on the processing

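Of 130 repeats over the 10 members (13 settings each), 118 stayed on the side of the threshold given in the report, 7 lost a call, 5 gained one and none reversed a called direction. The number of body wall members called higher stayed at 3 in each setting. Body wall members called lower went from 0 to 1 with the somatic centring, and ranged from 0 to 1 over the libraries left out in turn. Pharyngeal members called lower went from 2 to 1 with upper-quartile factors and to 0 in DESeq2, and ranged from 0 to 2 over the libraries left out. Pharyngeal members called higher went from 0 to 1 with the replicate block, and ranged from 0 to 1 over the libraries left out. Over all genes, 1007 were higher and 1185 lower in DESeq2, which gave no adjusted p for 2284 genes, and 1418 were higher with the somatic centring. Adding tnt-2 changed the troponin T share difference from -1.87 to -0.861 percentage points, where the larger denominator lowers every share. The log2 ratio of troponin T to troponin C went from 0.36 to 0.26, tnt-2 having risen by 0.15 and mup-2 by 0.41. The cause of the other changes was not tested.

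The replicate number pairs libraries in name only. Same-numbered libraries deviated together over 8635 genes (Pearson r = 0.217), but 2 pairs do not establish pairing. With the replicate block 2431 genes were higher and 2351 lower, and tni-4 passed (log2 fold change 0.18, edgeR adjusted p = 0.000112). Values per coding length were not run, since no coding lengths were used. A library left alone in its group was assumed to vary like the other group.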

Other observations

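The genes most like the members in profile were sought over the 4 libraries, as the distance between log2 CPM values centred on each gene's mean, among 8626 other genes with a mean of at least 100 counts. Nearest to the mean of the 6 body wall troponins were ZK858.6 (distance 0.00783), WBGene00021674 (0.00925) and the Integrator subunit gene ints-3 (0.0108). The body wall members themselves lay farther from their own mean, at 0.139 (tni-3) to 0.278 (tni-1), so that mean describes none of them closely. Nearest to the mean of the 3 pharyngeal troponins were ZK813.3 (0.0141), the ribosomal protein gene rpl-10 (0.0143) and taf-6.1 (0.0182), and the members lay at 0.134 (tnc-2) to 0.261 (tni-4). With 4 libraries, such distances are a description and carry no test.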
